A study of Nothobranchius furzeri with 16 samples.

Results

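FOSB (Nfu_g_1_000355), JUN (Nfu_g_1_020727), EGR2 (Nfu_g_1_012156) and CSRNP1 (Nfu_g_1_011365) are 4 immediate early genes of 26739 genes counted in brains of Nothobranchius furzeri, an annual killifish. They were picked by identifier after differences between groups of these same libraries were known, so their levels and fold changes are given as a description, with no p-value for their differences. Where it is said which of them passed the threshold, the share of all genes that did so stands beside it, and nothing is read from it. The symbols are those of human orthologues. Immediate early genes are switched on within minutes of neuronal activity, growth factors or stress, because their promoters are served by transcription factors that are already in the cell and are activated by phosphorylation. Their products are mostly transcription factors that act on a later wave of genes, and in the brain they are widely used as markers of recent activity. FOSB, a Fos protein, and JUN pair through leucine zippers to form the AP-1 transcription factor. EGR2 is a zinc finger factor of the early growth response family, known also for its part in hindbrain patterning and in myelination by Schwann cells. CSRNP1 is a cysteine- and serine-rich nuclear protein first described as a target of axin.

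Total RNA of whole brains was sequenced in 16 libraries, 4 for each of 4 groups: GRZ fish at 5 weeks post hatching (wph), and MZM-0410 fish at 5, 12 and 39 wph. GRZ and MZM-0410 are strains of the species. GRZ was sampled at 1 age only, and the study treats the 3 ages of MZM-0410 as young, adult and old. The labels give no treatment, and by them all fish were fasted and killed at one time of day with an anaesthetic and cooling on ice, which all groups share. By the labels the libraries are separate samples, taken here as separate fish. The study states 5 animals per age group and gives no number for GRZ, and 4 libraries of each MZM-0410 age are held here. For its protein comparisons the study kept the 4 samples of each group that correlated best with each other. Whether the libraries held here were selected in that way is not known, and if so their spread would be understated. Bulk RNA of a whole brain cannot tell more expressing cells apart from more RNA per cell.

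Counts assigned to genes numbered 8.80 to 10.6 M in GRZ (M, mega) and 3.93 to 8.24 M, 5.48 to 9.45 M and 8.27 to 8.74 M in MZM-0410 at 5, 12 and 39 wph, so that depth was lowest in young MZM-0410 fish. Between 20608 and 21603 genes had a count in each library. The 8 neuron markers searched for (among them SNAP25, RBFOX3 and ELAVL3) were all above 0 in every group, and SYT1, with at most 20 reads in any library, was at 0 in at least 1 library of MZM-0410 at 5 and at 12 wph. Their summed level was 3060 to 3210 CPM in GRZ, and 3210 to 3340, 3160 to 3290 and 2600 to 2800 CPM in MZM-0410 at 5, 12 and 39 wph. CPM (counts per M counts of a library) were scaled with TMM factors over the 16 libraries. CPM of different genes cannot be set against each other here because they are not divided by gene length.

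FOSB was low in young MZM-0410 brains and high in the 3 other groups. Its level was 77.0, 66.3, 65.7 and 75.7 CPM in GRZ at 5 wph. In MZM-0410 it was 13.7, 10.8, 10.9 and 19.1 CPM at 5 wph, 61.4, 91.5, 58.7 and 71.0 CPM at 12 wph and 83.7, 68.0, 75.6 and 93.9 CPM at 39 wph. No library of the 5 wph MZM-0410 group reached the lowest library of any other group, whereas the 3 other groups overlapped each other. Group means ± SD (n = 4) were 71.2 ± 5.99 CPM in GRZ, and 13.6 ± 3.89, 70.6 ± 14.9 and 80.3 ± 11.1 CPM in MZM-0410 at 5, 12 and 39 wph. Only 51 to 90 FOSB reads stood behind each value of MZM-0410 at 5 wph, for a counting error of at most 14%, which is well under the distance to the other groups. Gene counts do not separate full-length FOSB from its truncated splice form, known in mammals as delta FosB, which is longer lived as a protein.

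JUN, the partner subunit, was higher in adult and old than in young MZM-0410 brains and was at like levels in the 5 wph groups of both strains. It was at 30.0, 28.0, 22.6 and 21.7 CPM in GRZ. In MZM-0410 it was at 24.4, 22.9, 25.2 and 22.7 CPM at 5 wph, at 36.2, 32.9, 32.1 and 30.2 CPM at 12 wph and at 38.0, 29.5, 37.7 and 33.8 CPM at 39 wph. The 12 wph libraries all lay above those of both 5 wph groups, the 39 wph libraries lay above those of MZM-0410 at 5 wph and overlapped GRZ with replicate 8 only, and the 5 wph groups of both strains overlapped. Means were 25.6 ± 4.08 CPM in GRZ and 23.8 ± 1.2, 32.9 ± 2.48 and 34.7 ± 3.99 CPM at the 3 ages of MZM-0410 (SD, n = 4).

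EGR2 had the fewest reads of the 4 genes, and its level was highest in old MZM-0410 brains. It was at 6.71, 7.0, 4.86 and 4.52 CPM in GRZ. In MZM-0410 it was at 1.53, 1.56, 1.28 and 3.43 CPM at 5 wph, at 1.64, 5.50, 3.16 and 2.77 CPM at 12 wph and at 8.08, 7.19, 6.73 and 12.8 CPM at 39 wph. Each of the 39 wph libraries exceeded each of the 12 wph and 5 wph libraries of MZM-0410. In the order 39 wph, GRZ, 12 wph, 5 wph, every group overlapped its neighbour. The MZM-0410 values at 5 wph rested on 6, 13, 6 and 16 reads and so had a counting error of 25.0 to 40.8%. Means were 5.77 ± 1.27 CPM in GRZ and 1.95 ± 0.996, 3.27 ± 1.62 and 8.70 ± 2.80 CPM at the 3 ages of MZM-0410 (SD, n = 4).

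CSRNP1 repeated the pattern of FOSB over the groups. Its level was 197, 224, 185 and 215 CPM in GRZ, and in MZM-0410 it was 89.8, 90.2, 100.5 and 99.7 CPM at 5 wph, 265, 265, 194 and 244 CPM at 12 wph and 220.1, 196, 246 and 319.9 CPM at 39 wph. Means were 205 ± 17.6 CPM in GRZ and 95.1 ± 5.82, 242 ± 33.6 and 246 ± 53.5 CPM at the 3 ages of MZM-0410 (SD, n = 4). The MZM-0410 libraries at 5 wph formed a narrow band below every library of the other groups, which overlapped each other. A second gene, Nfu_g_1_020439, carries the same orthologue name, and whether it shares reads with the first was not tested. It was at 31.4, 33.5, 27.2 and 29.5 CPM in GRZ, and in MZM-0410 at 16.3, 14.7, 15.4 and 15.7 CPM at 5 wph, 42.9, 39.8, 24.9 and 32.7 CPM at 12 wph and 42.5, 39.9, 51.4 and 59.1 CPM at 39 wph. This copy also had its 4 lowest libraries in MZM-0410 at 5 wph.

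**Figure D1:**
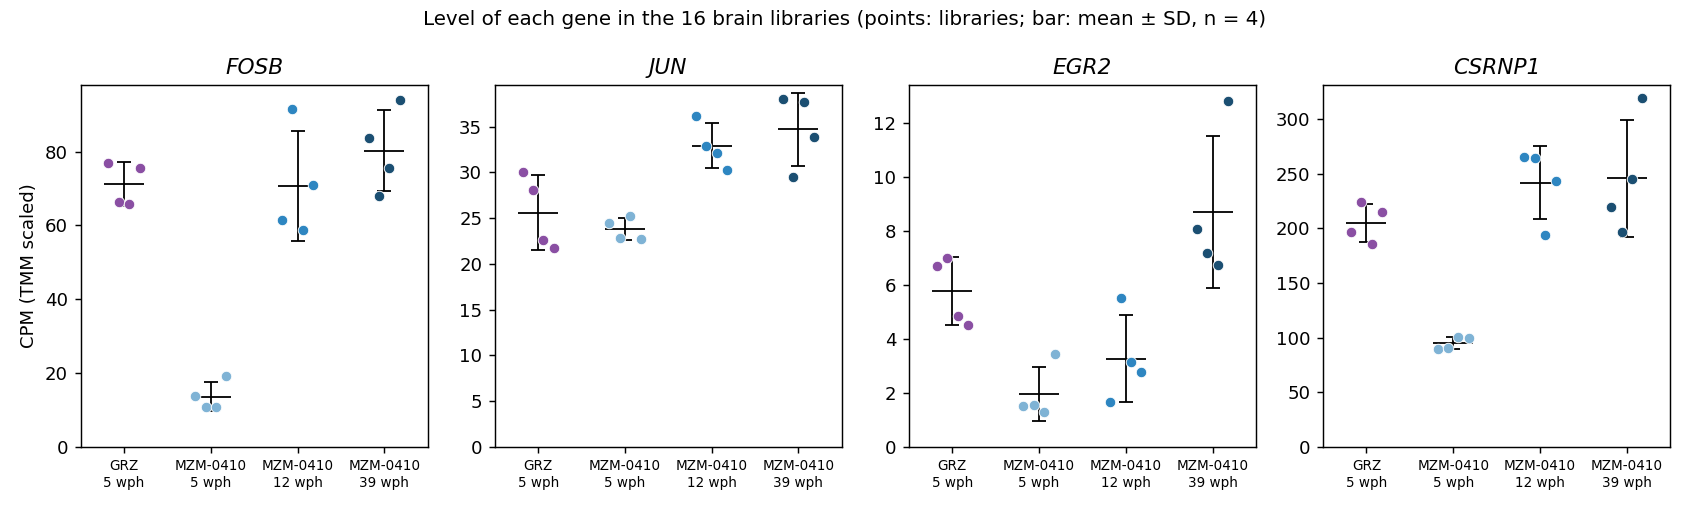
Level of FOSB, JUN, EGR2 and CSRNP1 in CPM (linear axes from 0, 1 panel per gene) in GRZ at 5 wph and MZM-0410 at 5, 12 and 39 wph. Points are libraries and bars are the mean ± SD of 4 libraries. FOSB and CSRNP1 are low only in MZM-0410 at 5 wph (means of 13.6 and 95.1 CPM), JUN is low in both 5 wph groups (25.6 CPM in GRZ and 23.8 CPM in MZM-0410), and EGR2 peaks at 39 wph (8.70 CPM).

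The age comparisons within MZM-0410 ask what differs between young, adult and old brains, and the strain comparison asks what differs between GRZ and MZM-0410 at 5 wph. Log2 fold changes (± SE) are from edgeR fits of the 8 libraries of 2 groups. Of the 4 fits, 3 share the 4 libraries of MZM-0410 at 5 wph, and since these libraries hold the low values of FOSB, EGR2 and CSRNP1, differences against them are not independent of each other.

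At 12 wph against 5 wph, the FOSB difference was 2.41 ± 0.19 on the log2 scale (5.32-fold higher), that of CSRNP1 was 1.36 ± 0.10 (2.56-fold) and that of JUN was 0.47 ± 0.09 (1.39-fold). EGR2 differed by 0.82 ± 0.41 with overlapping groups, and this estimate ran from 0.42 without 12 wph replicate 3 to 1.2 without 5 wph replicate 15. Of the 4 genes, FOSB, JUN and CSRNP1 had an adjusted p under 0.05 and were higher, and the same genes had groups that did not overlap. Over all 17366 genes tested, 6.60% were called (4.46% higher and 2.14% lower), and 14.5% had groups that did not overlap. Nothing is read from that count, since the genes were chosen with these contrasts known, and the same holds for the 3 other comparisons. The second CSRNP1 copy differed by 1.19 ± 0.16 (adjusted p = 0.00118, edgeR). This copy followed CSRNP1 over the 16 libraries (r = 0.94), and whether it shares reads with CSRNP1 was not tested. Its p-values, here and in the other comparisons, are therefore no independent support.

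At 39 wph against 12 wph, EGR2 was the only one of the 4 genes with a sizeable difference, at 1.35 ± 0.32 (2.55-fold higher). FOSB differed by 0.18 ± 0.14, JUN by 0.08 ± 0.10 and CSRNP1 by 0.02 ± 0.14, each within 2 SE of 0. Of the 4 genes, 1 (EGR2) had an adjusted p under 0.05 and groups that did not overlap, in a comparison where 9.64% of 17980 genes were called (3.89% higher and 5.75% lower) and 17.6% had groups that did not overlap. With 1 library left out the EGR2 estimate ran from 1.10 without 39 wph replicate 10 to 1.75 without 12 wph replicate 3, and its adjusted p was over 0.05 without 12 wph replicate 4 or 5 or without 39 wph replicate 6 or 10. The second copy of CSRNP1 differed by 0.46 ± 0.17, which did not pass the test (adjusted p = 0.111, edgeR).

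At 39 wph against 5 wph the differences were 2.59 ± 0.16 for FOSB (6.01-fold higher), 2.18 ± 0.32 for EGR2 (4.52-fold), 1.37 ± 0.13 for CSRNP1 (2.59-fold) and 0.55 ± 0.10 for JUN (1.47-fold). All 4 genes were called higher and had groups that did not overlap, beside 24.9% of 17938 genes called (12.3% higher and 12.6% lower) and 26.7% without overlap. Here the second CSRNP1 copy differed by 1.65 ± 0.13 (adjusted p = 1.8e-05, edgeR).

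In GRZ against MZM-0410 at 5 wph, FOSB differed by 2.40 ± 0.15 (5.29-fold higher in GRZ), EGR2 by 1.58 ± 0.31 (2.98-fold) and CSRNP1 by 1.11 ± 0.08 (2.15-fold), whereas JUN differed by 0.10 ± 0.12. FOSB, EGR2 and CSRNP1 were called and did not overlap between the strains, beside 10.1% of 17994 genes called (5.44% higher and 4.69% lower) and 16.7% without overlap. The second CSRNP1 copy differed by 0.97 ± 0.11 (adjusted p = 0.000146, edgeR). Since strain is tested at 1 age only, no age difference of GRZ is given here.

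**Figure D2:**
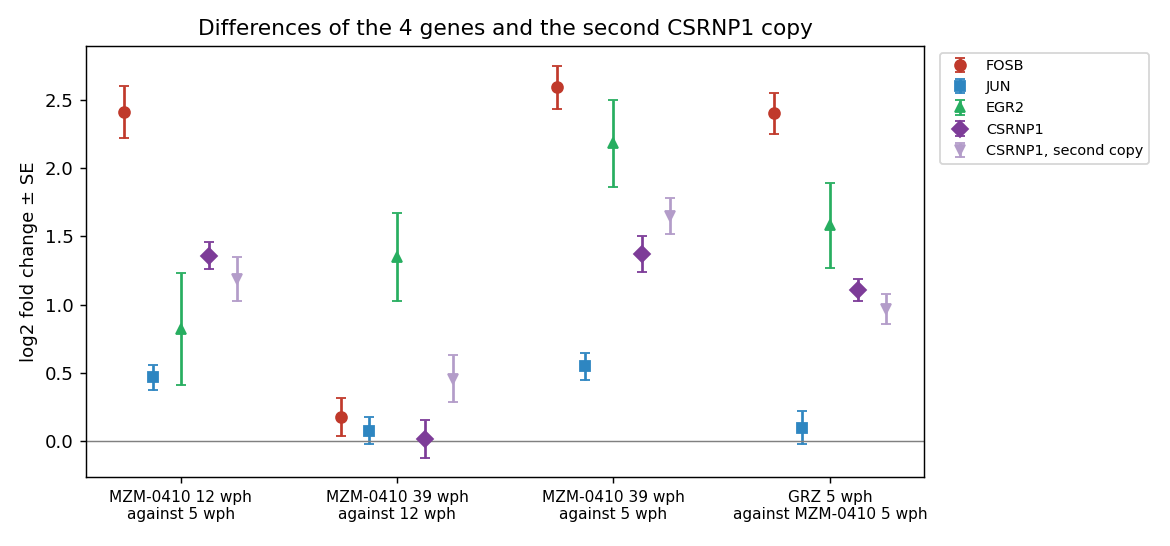
Log2 fold change ± SE (edgeR, 8 libraries per comparison, linear axis) of the 4 genes and of the second CSRNP1 copy in 4 comparisons. FOSB lies near 2.4 to 2.6 in the 3 comparisons with MZM-0410 at 5 wph and at 0.18 for 39 against 12 wph, where EGR2 stands apart at 1.35, and JUN is at 0.10 between the strains.

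Markers of other cell types also differed between the groups, and 0 of those named was at 0 counts over a group. The 5 endothelial genes (among them CLDN5, KDR and PECAM1) summed to 248 to 304 CPM in GRZ, and to 175 to 207, 270 to 323 and 219 to 254 CPM in MZM-0410 at 5, 12 and 39 wph. Like FOSB and CSRNP1 they were lowest in MZM-0410 at 5 wph, but all 5 estimates were below 0 at 39 against 12 wph. In edgeR 3, 3 and 1 of them rose and 0 fell at 12 against 5 wph, at 39 against 5 wph and in GRZ (also 0 lower in DESeq2 and at an unadjusted p under 0.05), and 1 fell at 39 against 12 wph. Among all genes with an orthologue name, 12.7, 19.8 and 8.81% rose in the first 3 of these comparisons, and 11.6% fell at 39 against 12 wph. Nothing is read from counts of so few genes. GH1, a hormone of the pituitary, was at 9.37 to 63 CPM in GRZ and at 0.213 to 18.9, 4.02 to 521 and 0.464 to 336 CPM at the 3 ages of MZM-0410. It rose in the 3 comparisons with MZM-0410 at 5 wph, by 4.97, 4.29 and 2.47 for 12 wph, 39 wph and GRZ (adjusted p = 0.0308, 0.0183 and 0.0438, edgeR), although the ranges overlapped, and DESeq2 did not call it in GRZ. The summed level of the 4 microglial genes, like EGR2, was highest at 39 wph. It was 218 to 268 CPM, beside 179 to 207 CPM in GRZ. At 5 and 12 wph it was 155 to 195 and 157 to 191 CPM. Singly, APOE (Nfu_g_1_011018) and CD68 were highest at 39 wph, at 180 and 28.2 CPM. ITGB2 was not, at 31.5 CPM beside 33.7 CPM in GRZ and 34.2 and 32.8 CPM at 5 and 12 wph. Nor was the second APOE copy, at 2.04 CPM beside 2.14 CPM at 12 wph. Other lists, the neuron list above among them, had their lowest sums at 39 wph, where EGR2 was highest. The 4 oligodendrocyte genes summed to 966 to 1170 CPM in GRZ and to 1040 to 1220, 867 to 1530 and 541 to 700 CPM at the 3 ages of MZM-0410, and the 4 astroglial genes to 2410 to 2960 CPM in GRZ and to 2730 to 3070, 2660 to 3790 and 2030 to 2450 CPM at those ages. The astroglial sums at 39 wph overlapped those of GRZ. Singly, GFAP was not lowest at 39 wph, at 493 CPM beside 488 CPM in GRZ and 497 and 530 CPM at 5 and 12 wph. Nor was SNAP25 of the neuron list, at 897 CPM beside 859 CPM in GRZ. The muscle genes TNNI2 and MYLPF summed to 92.3 to 164 CPM in GRZ and to 21.9 to 121, 4.95 to 102 and 2.31 to 5.68 CPM at the 3 ages. ALAS2 of blood was at 7.0 to 9.1 CPM in GRZ and at 8.65 to 20.1, 9.15 to 13.3 and 5.43 to 11.7 CPM at the 3 ages. The part of these cells in the levels of the 4 genes was not tested.

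Depth was lowest in the group with the low values. With counts thinned to the smallest library the log2 differences from MZM-0410 at 5 wph were 2.36 to 2.53 for FOSB and 1.16 to 1.44 for CSRNP1. Thinning draws reads at random and keeps the expected share of each gene in its library. Such estimates were therefore bound to stay near those of all reads, but for the noise of the draw. Whether shallow libraries differ in other ways was not tested. JUN at 12 against 5 wph was 0.58 when thinned, against 0.47. For EGR2, which had few reads, 5 alternative settings that kept all libraries, thinning among them, gave 0.64 to 0.82 at 12 wph. They gave 2.1 to 2.18 at 39 wph and 1.51 to 1.59 in GRZ.

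The other genes listed with AP-1 code for basic leucine zipper proteins, listed as AP-1 subunits or as dimer partners. The small Maf genes MAFG and MAFK are among them, and not all need pair with both FOSB and JUN. For short, all genes of this list are called AP-1 genes here. Of 17 symbols searched for, 8 had a named gene and 10 such genes were tested. The names come from tables of the study in which changed genes are more frequent, so each count is to be read beside the share of all named genes that were called. That share was 19.2% at 12 against 5 wph (12.7% higher and 6.50% lower) and 17.5% at 39 against 12 wph (5.88% higher and 11.6% lower). It was 42.3% at 39 against 5 wph (19.8% higher and 22.5% lower) and 14.7% in GRZ against MZM-0410 (8.81% higher and 5.91% lower). In this order of comparisons, 6, 3, 8 and 7 of the 10 AP-1 genes rose and 1, 0, 1 and 0 fell (edgeR). DESeq2 also called 0 lower at 39 against 12 wph and between the strains, as did an unadjusted p under 0.05 in edgeR. Their median log2 fold change was 0.54, 0.14, 0.80 and 0.45, beside a median of -0.01, 0, 0 and 0 over all genes tested.

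FOS, the founding member of the FOSB family, was at 29.3 ± 5.62 CPM in GRZ and at 17.9 ± 3.74, 25.4 ± 5.25 and 46.7 ± 2.83 CPM in MZM-0410 at 5, 12 and 39 wph (SD, n = 4). Like FOSB, it was higher in GRZ against MZM-0410 at 5 wph, by 0.72 ± 0.18 (adjusted p = 0.0233, edgeR). It was also higher at 39 against 5 wph, by 1.4 ± 0.13 (adjusted p = 3.29e-05, edgeR). Unlike FOSB, it differed by 0.52 ± 0.17 at 12 against 5 wph without passing the test (adjusted p = 0.103) and rose by 0.89 ± 0.13 at 39 against 12 wph (adjusted p = 0.00568, edgeR). Whether this course differs from that of FOSB was not tested. JUND, a JUN paralogue that is less inducible in mammals, rose by 0.66 ± 0.12 at 12 against 5 wph (adjusted p = 0.00844) and by 0.72 ± 0.08 in GRZ against MZM-0410 (adjusted p = 0.000152, edgeR), where the JUN estimate was 0.10. JUNB, the third JUN gene, rose at each step of age, by 0.59 (adjusted p = 0.0251) and then 0.51 (adjusted p = 0.0184, edgeR). MAFK (Nfu_g_1_007579), a small Maf protein, stood at 24.1 ± 8.11 CPM in GRZ and at 9.92 ± 1.35, 28.4 ± 3.97 and 30.8 ± 6.34 CPM at the 3 ages of MZM-0410, a course like that of FOSB. The second MAFK copy (Nfu_g_1_023165) differed less, at 53.7 CPM in GRZ and 41.2, 51.5 and 54.2 CPM at those ages. It did not pass the test at 12 against 5 wph (0.32 ± 0.09, adjusted p = 0.0606, edgeR). It rose by 0.39 at 39 against 5 wph (adjusted p = 0.00494) and by 0.37 in GRZ (adjusted p = 0.0259, edgeR). MAFG, another small Maf, was the gene that fell in both comparisons with 5 wph within MZM-0410, by 0.25 and 0.33 on the log2 scale.

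The EGR2 relatives EGR1, EGR3 and EGR4 are activity-induced zinc finger factors, and NAB1 and NAB2 are corepressors that bind EGR proteins. Of these 6 tested genes (EGR4 has 2 copies), 3, 4, 4 and 2 rose in the 4 comparisons in the same order, with medians of 0.39, 0.40, 0.62 and 0.24 on the log2 scale. In edgeR and in DESeq2 0 fell in any of them, and at an unadjusted p under 0.05 1 was lower at 39 against 12 wph and 0 in the 3 others. These counts too are to be read beside the shares of named genes given above. At 39 against 12 wph, where the EGR2 estimate was 1.35, EGR1 rose by 0.74 ± 0.10 (adjusted p = 0.00439, edgeR) and EGR3 by 0.41 (adjusted p = 0.0139, edgeR). Both EGR4 copies rose there too, by 0.39 and 0.47. EGR1 was at 89.5 ± 4.87 CPM in GRZ and at 79.6 ± 1.24, 69.9 ± 11.1 and 116 ± 4.53 CPM in MZM-0410 at 5, 12 and 39 wph (SD, n = 4), and its differences of -0.19 ± 0.10 at 12 against 5 wph (adjusted p = 0.302) and 0.16 ± 0.06 between strains (adjusted p = 0.133, edgeR) did not pass the test. NAB2 instead rose at 12 against 5 wph by 0.97 ± 0.12 (adjusted p = 0.000645) and in GRZ by 0.73 (adjusted p = 0.00442, edgeR), with 0.13 at 39 against 12 wph. The other 2 CSRNP family symbols had no named gene.

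**Figure D3:**
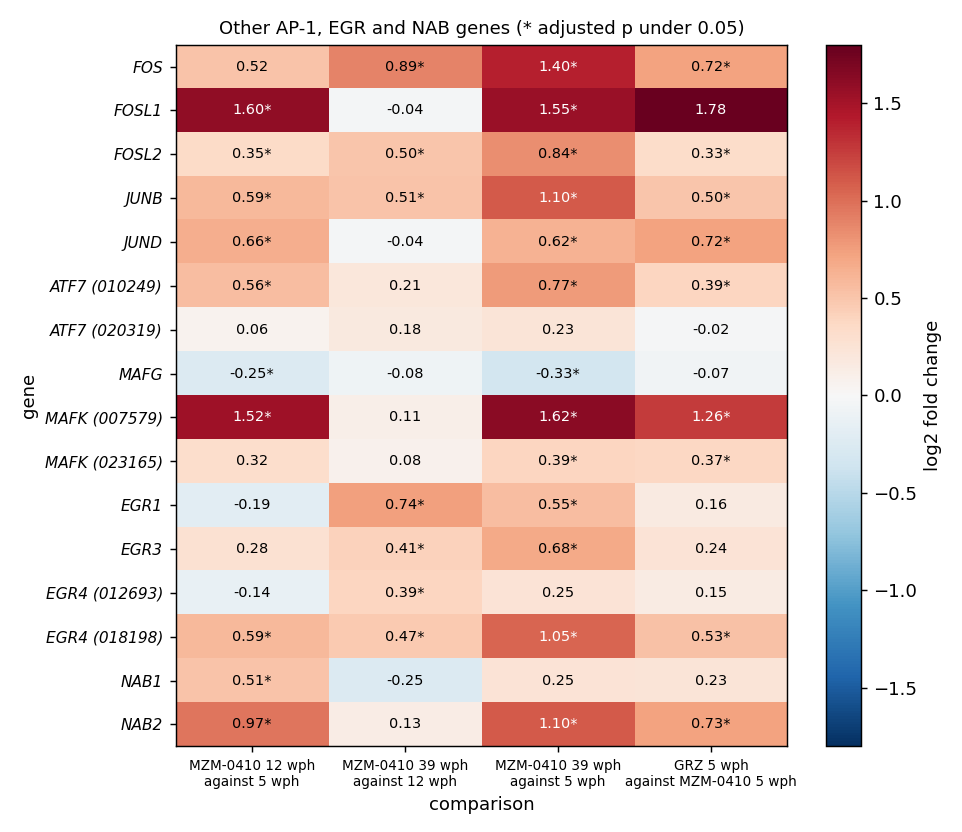
Log2 fold change (colour and number) of the other named AP-1, EGR and NAB genes in 4 comparisons, with an asterisk at an adjusted p under 0.05 (edgeR), where genes with the same symbol carry the end of their identifier. JUND and NAB2 rise at 12 against 5 wph (0.66 and 0.97) and not at 39 against 12 wph (-0.04 and 0.13), and EGR1 does the opposite (-0.19 and 0.74).

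Over a wider list of other immediate early genes (81 symbols, of which 47 had a named gene, 56 genes in all, the AP-1, EGR and NAB genes included), 33 of 55 tested rose and 2 fell at 12 against 5 wph, with a median log2 fold change of 0.57. At 39 against 12 wph 10 of 55 rose and 3 fell (median 0.07), and 6 rose without 12 wph replicate 5 or without 39 wph replicate 6. At 39 against 5 wph 36 of 54 rose and 3 fell (median 0.67), and in GRZ against MZM-0410 34 of 55 rose and 2 fell (median 0.50). The shares over genes with a name given above apply to these counts too. Among transcription factors of the list, CEBPB, a basic leucine zipper factor of acute responses, was at 15 CPM at 12 wph and 3.75 CPM at 5 wph (log2 fold change 2.00 ± 0.23, adjusted p = 0.000434), and NR4A3, a nuclear receptor of the NR4A family, rose by 1.29 ± 0.12 (adjusted p = 0.00014, edgeR). NPAS4, a neuron-specific factor induced by calcium entry, rose by 0.77 ± 0.13 at 12 against 5 wph (adjusted p = 0.00527, edgeR). It also rose by 0.58 ± 0.14 at 39 against 12 wph (adjusted p = 0.0264) and by 1.21 ± 0.09 in GRZ against MZM-0410 (adjusted p = 8.17e-06, edgeR). MCL1, a survival protein of the BCL2 family, shared the course of FOSB, with 1.09 ± 0.11 at 12 against 5 wph (adjusted p = 0.000245) and 0.01 ± 0.13 at 39 against 12 wph (adjusted p = 0.973, edgeR). The genes that fell were MAFG and IRF1 at 12 against 5 wph, both VGF copies and PCSK1 at 39 against 12 wph, MAFG, ID1 and HES1 at 39 against 5 wph, and IRF1 and HES1 in GRZ. IRF1, ID1 and HES1 are named because they fell, after their values were seen.

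Feedback inhibitors are products of the same response that shut it down. Of 11 tested, 5 rose and 2 fell at 12 against 5 wph, 1 rose and 1 fell at 39 against 12 wph, 7 rose and 2 fell at 39 against 5 wph, and 7 rose and 1 fell in GRZ, with medians of 0.40, 0.20, 0.36 and 0.43 on the log2 scale. These calls are from edgeR, and at 39 against 5 wph DESeq2 called 7 higher and 0 lower. Of all named genes, 12.7, 5.88, 19.8 and 8.81% were higher and 6.50, 11.6, 22.5 and 5.91% lower in the same order of comparisons. ZFP36, which destabilises short-lived mRNAs, was at 60.2 CPM in GRZ against 15.2 CPM in MZM-0410 at 5 wph (log2 fold change 2.00 ± 0.18, adjusted p = 2.79e-05, edgeR), and at 48.9 and 66.5 CPM in MZM-0410 at 12 and 39 wph. DUSP1, a phosphatase of MAP kinases, rose by 1.5 ± 0.24 in GRZ (adjusted p = 0.00275, edgeR). Within MZM-0410 it rose by 1.29 ± 0.30 at 12 against 5 wph (adjusted p = 0.0246) and by 2.24 ± 0.26 at 39 against 5 wph (adjusted p = 0.000161, edgeR). SIK2, a kinase that holds back CREB coactivators, rose by 0.95 ± 0.08 at 12 against 5 wph (adjusted p = 5.79e-05) and fell by 0.60 at 39 against 12 wph (adjusted p = 0.00439, edgeR). The genes that fell at 12 against 5 wph were ZFP36L1, a relative of ZFP36, at 21.6 CPM at 12 wph and 36.8 CPM at 5 wph (log2 fold change -0.76 ± 0.08, adjusted p = 0.000188, edgeR), and SPRY2, an inhibitor of receptor tyrosine kinase signalling (-0.51 ± 0.10, adjusted p = 0.0085, edgeR). SPRY2 also fell in GRZ, by 0.46 (adjusted p = 0.0363, edgeR), and ZFP36L1 rose at 39 against 12 wph by 0.50 (adjusted p = 0.0104, edgeR).

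Kinases and transcription factors upstream of immediate early genes had medians of 0.07, 0.04, 0.10 and 0.02 in the 4 comparisons. Of all named genes, 12.7, 5.88, 19.8 and 8.81% were higher and 6.50, 11.6, 22.5 and 5.91% lower in the same order. The upstream counts that follow are to be read beside these shares. Of 22 upstream genes tested, 2 rose and 0 fell at 12 against 5 wph, where 1 was lower at an unadjusted p under 0.05 and 0 in DESeq2. At 39 against 12 wph 3 rose and 2 fell, and at 39 against 5 wph 7 rose and 1 fell. In GRZ against MZM-0410 edgeR called 0 of them and DESeq2 called 1 higher and 0 lower, beside 3 higher and 5 lower at an unadjusted p under 0.05 in edgeR. Among those called, ELK3, a ternary complex factor, rose by 0.82 ± 0.22 at 12 against 5 wph (adjusted p = 0.0468) and MEF2D, a MADS-box factor, by 0.33 ± 0.05 at 39 against 5 wph (adjusted p = 0.000715, edgeR). RPS6KA2, a kinase downstream of ERK, rose by 0.33 ± 0.08 at 12 against 5 wph (adjusted p = 0.0365) and fell by 0.57 at 39 against 12 wph (adjusted p = 0.0112, edgeR).

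A different list of 14 genes tested covers the glucocorticoid response. It holds the receptor genes NR3C1 and NR3C2 as well as genes that respond. Like the other lists, it was made with earlier results of these libraries known. Its counts and p-values are therefore a description and no independent support. At 12 against 5 wph 10 rose and 1 fell (median 0.69), at 39 against 12 wph 4 rose and 0 fell (median -0.07), at 39 against 5 wph 12 rose and 0 fell (median 0.77), and in GRZ 8 rose and 2 fell (median 0.41). At an unadjusted p under 0.05 in edgeR 2 were lower at 39 against 12 wph and 0 at 39 against 5 wph, where DESeq2 called 1 and 0. The 4 that rose at 39 against 12 wph were PER1, NR3C1 and both copies of NR3C2. FKBP5, KLF9 and KLF13 were not called there (log2 fold change -0.29, 0.28 and -0.58). Of all named genes, 12.7, 5.88, 19.8 and 8.81% were higher and 6.50, 11.6, 22.5 and 5.91% lower in the same order of comparisons. PER1, a clock gene, fell at 12 against 5 wph by 0.86 (adjusted p = 0.00629) and in GRZ by 0.81 (adjusted p = 0.0206), and NR3C2, the mineralocorticoid receptor (Nfu_g_1_007124), fell in GRZ by 0.45 (adjusted p = 0.0304, edgeR). These falls were picked out after their values were seen. FKBP5, a cochaperone of the glucocorticoid receptor, was at 636 CPM at 12 wph and 66.0 CPM at 5 wph (log2 fold change 3.28 ± 0.18, adjusted p = 6.81e-06, edgeR). It was at 519 CPM at 39 wph, and at 453 CPM in GRZ (2.78 ± 0.16 against MZM-0410 at 5 wph, adjusted p = 1.24e-06, edgeR).

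Over the 4 groups together, the spread between fish was highest for EGR2 and lowest for JUN, although within GRZ JUN varied more than FOSB and CSRNP1. The biological coefficient of variation, the spread between libraries of a group beyond counting error as edgeR estimates it over the 4 groups, was 27.3% for EGR2, 14.4% for FOSB, 12.7% for CSRNP1 and 10.1% for JUN, beside a median of 11.1% over 18623 genes. Because this spread depends on abundance, each gene was also placed among the 1000 genes nearest to it in level, where FOSB ranked at the 94.4th percentile, CSRNP1 at the 95.2nd, EGR2 at the 89.3rd and JUN at the 61.6th. The CSRNP1 value was 10.1% without 39 wph replicate 10, whose 319.9 CPM was its highest library. FOSB varied least in GRZ (coefficient of variation of CPM 8.42%, against 28.6, 21.1 and 13.8% in MZM-0410 at 5, 12 and 39 wph), whereas JUN varied most there (15.9%, against 5.05, 7.55 and 11.5%). At 5 wph in MZM-0410 the JUN spread was under its counting error of 7.24 to 10.2%. With 4 fish per group these orders were not tested, and how the fish held here were selected is not known.

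To describe how the genes covary between fish, the mean of each group was taken from the log2 CPM of its libraries. FOSB and EGR2 deviated together, with r = 0.78 over the 16 libraries (permutation p = 0.00665, adjusted over 6 pairs 0.0399) and a Spearman coefficient of 0.59 (permutation p = 0.0408, adjusted 0.245), and their deviations had the same sign in 10 of 16 libraries. The relation rests on few libraries. Without 12 wph replicate 3 and 5 wph replicate 15, which were farthest from the median of FOSB, r was 0.52 (permutation p = 0.111). The adjusted p was over 0.05 in 13 of 16 fits that left out 1 library, and highest without 5 wph replicate 15 (r = 0.66, adjusted permutation p = 0.299). The labels name no batch within which to repeat the test.

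**Figure D4:**
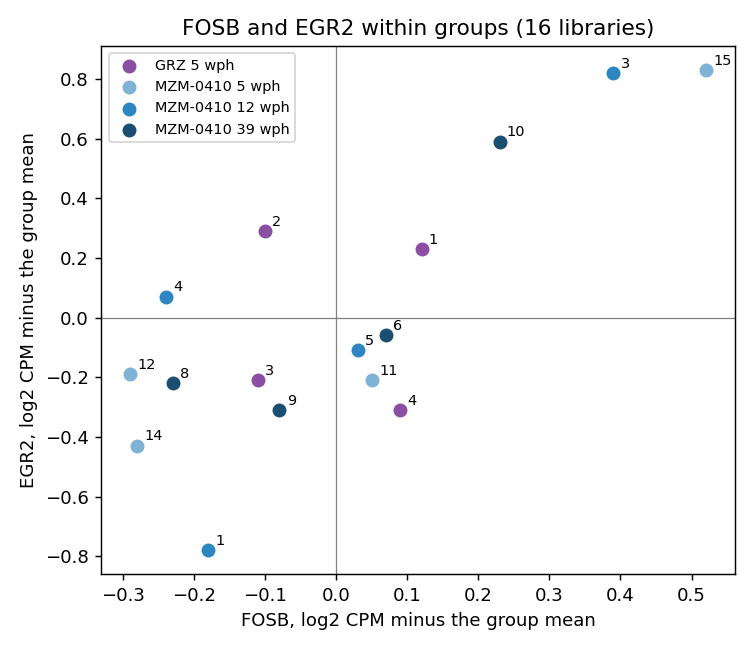
Deviation of EGR2 against deviation of FOSB from the mean of the group (both in log2 CPM, 16 libraries, numbered by replicate and coloured by group). Replicate 15 of MZM-0410 at 5 wph, replicate 3 at 12 wph and replicate 10 at 39 wph sit at the upper right. Over the 16 libraries r is 0.78, and it is 0.52 without replicates 15 and 3.

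The 5 other pairs had r between -0.00 and 0.46, with adjusted permutation p between 0.203 and 0.997, and Spearman coefficients between 0.04 and 0.36, with adjusted permutation p between 0.532 and 0.879. FOSB and CSRNP1 were highest among them, with r = 0.46 also when the same 2 libraries were left out. FOSB and JUN, the AP-1 partners, had r = -0.00 and the same sign in 8 of 16 libraries. At 16 libraries these p-values do not show that the pairs are unrelated.

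Of the 16 libraries, 1 was counted as above the group mean in all 4 genes and 3 as below it. Whether this differs from unrelated genes was not tested. Replicate 3 at 12 wph lay at or above the group mean for each gene, with FOSB 0.39 and EGR2 0.82 above on the log2 scale and JUN at 0.00. Replicate 3 of GRZ, replicate 12 of MZM-0410 at 5 wph and replicate 8 at 39 wph lay below it for each gene, and the other 12 libraries were mixed. Replicate 10 at 39 wph was high for EGR2 (0.59), CSRNP1 (0.41) and FOSB (0.23) and not for JUN (-0.03). Replicate 15 of MZM-0410 at 5 wph was high for EGR2 (0.83) and FOSB (0.52), with CSRNP1 at 0.07 and JUN at -0.06.

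**Figure D5:**
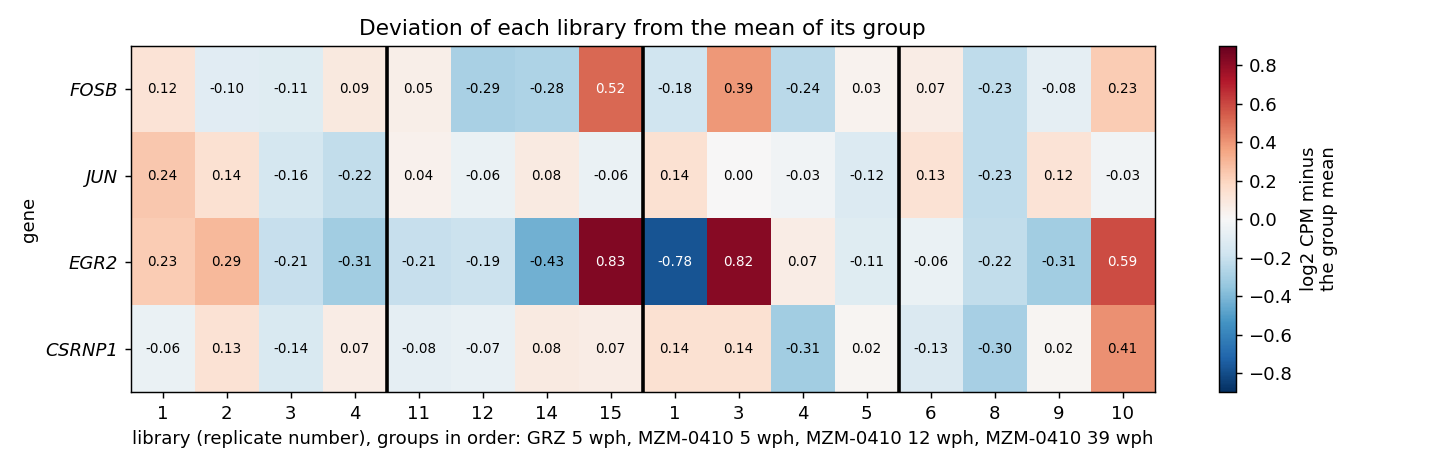
Deviation of each library from the mean of its group in log2 CPM (colour and number) for the 4 genes, with libraries in columns by group and replicate number. The strongest cells are in the EGR2 row, from -0.78 in replicate 1 to 0.82 in replicate 3 at 12 wph and 0.83 in replicate 15 of MZM-0410 at 5 wph, and the JUN row is pale, at -0.23 to 0.24.

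The genes most like each of the 4 were ranked by Pearson's r of log2 CPM over the 16 libraries among 18633 genes, as a description in which group differences weigh most. For FOSB the nearest named genes were ADGRB1, an adhesion receptor, KLF9, a Kruppel-like factor induced by glucocorticoids, and RTN4RL2, a Nogo receptor relative (r = 0.98 each). For CSRNP1 they were MAGIX, a PDZ domain protein (0.98), MCL1 (0.97) and KLF9 (0.97). CSRNP1 itself ranked 9th for FOSB (r = 0.95), whereas EGR2 ranked 281st (0.77) and JUN 1170th (0.60). The named genes nearest to EGR2 were SHANK2, a scaffold of the postsynaptic density (0.93), PI4KB, a lipid kinase (0.90), and RNF19B, a ubiquitin ligase (0.89). PI4KB and RNF19B had 5 unnamed genes above them. The named genes nearest to JUN were FLNC, an actin cross-linker (0.91), ROCK2, a kinase of the actin cytoskeleton (0.90), and ACAN, a core protein of perineuronal nets (0.88). They had 1 unnamed gene above them.

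After the group means were removed, ADGRB1 (0.90) and the EGR4 copy Nfu_g_1_018198 (0.84) were nearest to FOSB, and EGR2 ranked 27th of 18633. The next named gene was HIVEP2, a zinc finger factor (0.83), with 1 unnamed gene above it. For EGR2 the nearest named genes were TBC1D22B (0.90), HIVEP2 (0.87) and GRID2IP, a postsynaptic protein of the cerebellum in mammals (0.85). HIVEP2 had 1 and GRID2IP had 2 unnamed genes above it. For CSRNP1 the nearest gene was its second copy (0.88). The next named genes were MKNK2, a kinase of the translation machinery (0.86), and ZFAND5, a zinc finger protein (0.85), with 1 unnamed gene above them. JUN had no named gene above 0.77, the value of ARHGDIA, with 13 unnamed genes above it. These points share libraries, depth and the same group means, and the median r over all genes lay between -0.02 and -0.00. The nearest genes were picked as the highest of 18633 values of r over 16 libraries. How high such picked values reach by chance was not tested, and the median is no measure of it.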

How the data were processed

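Brain RNA of 16 fish was sequenced as ribosome-depleted, stranded libraries (total RNA taken from protein lysates). The authors deposited 1 table of raw counts per gene. By the labels and the study's methods it was made with bcl2fastq 1.8.4, TopHat2 2.1.0 (genome Nfu_20150522) and featureCounts 1.5.0. Strand was ignored in counting, so reads of antisense transcripts can be counted for a gene. Whether near-identical copies share reads was not tested. Names came from pairs of identifier and human orthologue in the study's tables (5356 genes, or 20% of the table) and favour changed genes, while 0 identifiers matched the reference gene table. The authors' own fold changes were not used.

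Each comparison used 8 libraries, filterByExpr, TMM scaling and the two-sided quasi-likelihood test of edgeR 4.0.16 (R 4.3.3), with Benjamini-Hochberg adjustment over all genes tested and a threshold of 0.05. Standard errors (SE) were derived from the fold change and the F statistic of the same fit. Covariation used log2 CPM (prior count 2) minus the group mean, with 100000 permutations within groups, two-sided, adjusted over 6 pairs. Replicate pairs all differed by more than sampling noise. Fits were tested on simulated counts. DESeq2 1.42.0, other scaling, no filter, 1 fit of 16 libraries, thinned counts and leaving out each library were alternatives.

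The genes and lists were chosen with earlier results of these data known. Genes named were drawn from the 4 genes, second copies, AP-1, EGR and NAB genes, the 4 smallest p per other list and comparison, and the 3 named genes most like each gene, with exceptions marked. Counting errors cover counting only, since reads are not independent molecules.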

Additional observations from a re-analysis of the deposited data

Results flagged for a closer look

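EGR2 in replicate 15 of MZM-0410 at 5 wph was at 3.43 CPM (16 reads), far from 1.53, 1.56 and 1.28 CPM in the other fish of its group. The gap to the nearest library was 0.872 of the group's range, above Dixon's 95% critical value for 4 samples. With 16 groups of values examined in this way (4 genes in 4 groups), about 1 in 20 would be marked by chance, and the 3 low libraries rest on 6 to 13 reads.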

How the results depend on the processing

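The fold changes of the 4 genes stayed within the spread between fish in 207 of 208 alternative settings, and no called one changed sign. The exception was JUN at 12 against 5 wph, 0.58 with counts thinned to the smallest library against 0.47 ± 0.09 (SE) with all reads. Thinning used a random draw of reads that was not repeated, and the cause of this shift was not tested. In each comparison 8 of these settings per gene left out 1 library. With 4 libraries per group this can hardly move an estimate by that spread, so the count says little about them. EGR2 at 12 against 5 wph ran from 0.42 to 1.2 and was still counted as within it. Of the other immediate early genes, 1 instead of 2 was lower at 12 against 5 wph in the fit of all 16 libraries and with thinned counts, and 1 in GRZ against MZM-0410 with thinned counts.

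With 1 library left out, fewer samples gave 650 to 972 genes called at 12 against 5 wph (1146 with all), 608 to 1620 at 39 against 12 wph (1734) and 1055 to 2510 in GRZ against MZM-0410 (1823). Other immediate early genes lower numbered 0 to 2 at 12 against 5 wph, 0 to 3 at 39 against 12 wph and 0 to 2 in GRZ, and those higher at 39 against 12 wph 6 to 12. The correlation of FOSB and EGR2 ran from 0.66 to 0.83 and the CSRNP1 coefficient of variation from 10.1 to 13.1%. Depth limits EGR2 most. No paired analysis was possible because the groups compared share 0 replicate numbers.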
